A study of Homo sapiens with 16 samples.

Results

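The genes described here are 35 genes of the NRF2 antioxidant and detoxification response: the gene of the transcription factor NRF2 itself, its partners KEAP1 and MAFG, and genes that NRF2 is known to regulate. They were taken as a list of symbols from the symbol column of a table of TMM-scaled CPM, which are read counts scaled so that libraries can be compared. No filter on their values was used, but the list was chosen with earlier results of these data known. Of the 35 genes, 34 were found among the 22916 genes of that table, and 33 had enough counts to enter the tests, which covered 17104 genes. RNA was sequenced from HCT116 cells, a human cell line established from a colon cancer, in 4 groups of 4 libraries. WT cells are unedited. Truncation cells were gene-edited to carry a shortened Rpn10, a ubiquitin receptor of the proteasome that is encoded by PSMD4, so that its ubiquitin interacting motif is missing. Both genotypes were transfected with a scrambled siRNA (scramble) or with 4 pooled siRNAs that target OTUD5, a deubiquitinase (knockdown), in both cases at 50 nM for 48 hours by reverse transfection with Lipofectamine RNAiMAX. All 4 groups were therefore transfected, and no untransfected cells were compared. Whether the truncation line is 1 clone is not stated, so differences between the genotypes cannot be told apart from differences between lines. The titles number the libraries of a group as biological replicates. Whether they came from separate cultures is not stated, and the p-values therefore describe only the spread among libraries, which may be technical.

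NRF2, encoded by NFE2L2, is made continuously and destroyed continuously. In unstressed cells KEAP1 holds it and presents it to a CUL3 ubiquitin ligase, and the proteasome degrades it. When electrophiles or oxidants modify KEAP1, NRF2 accumulates, pairs with a small MAF protein such as MAFG and binds antioxidant response elements, short DNA motifs near its target genes. The targets make and recycle glutathione and thioredoxin, supply NADPH as the reducing power for both, break down haem and store the released iron, and reduce, conjugate or export reactive carbonyls and quinones. BACH1 competes for the same elements, most clearly at HMOX1.

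The libraries held 28777244 to 29645663 counts each. OTUD5 had 88.5 ± 3.18 CPM (SD, n = 4) in WT cells with scramble and 20.02 ± 2.05 with knockdown, and 94.9 ± 2.27 in truncation cells with scramble and 20.7 ± 1.49 with knockdown, so every group carried the OTUD5 level of its treatment label, including 4 libraries whose titles name the other siRNA. PSMD4 stood at 236 ± 13.2, 263 ± 26.7, 202 ± 5.37 and 321 ± 16.7 CPM in the same order, which leaves the edit unchecked, since the count covers the gene as a whole. WT knockdown replicate 2 differed most from the other libraries of its group, and in WT knockdown replicate 3 the number of genes detected was 32264, where the other 15 libraries detected 25626 to 27765. Calls on the listed genes that changed when both of these libraries were left out are given beside the gene. Of 8 colon epithelial markers 7 were in the table, with sums of 3907 to 5404 CPM per library, although VIL1 was near 0 (at most 0.526 CPM). Fibroblast markers summed to 34.3 to 57.2 CPM, nearly all from COL1A1, with LUM not in the table. Blood markers summed to at most 14.7 CPM and endothelial markers to at most 2.50. CD3E, HBB and CDH5 were at 0 in several libraries, and CD68 was not in the table. The blood marker PTPRC reached 11.7 CPM in a WT scramble library. Its mean was 3.03 CPM in that group and 0.190 to 0.337 in the other groups, and the cause was not tested. LYZ reached 2.50 CPM.

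To show what NRF2 target sequence looks like at these genes, the window from 250 bases before to 50 bases after the start of each gene (RefSeq, GRCh38.p14) was searched on both strands for TGACNNNGC, the core of the antioxidant response element, which reads GCNNNGTCA on the other strand. The core overlaps the AP-1 motif TGACTCA in its first bases. Of the 27 listed genes with a window, 7 (25.9%) held a match, against 4687 of 35116 windows in all (13.3%). Such a match is a description of the letters, and elements that NRF2 is known to use can lie farther away than these windows reach. The stretches of 4 tested genes with a match before the start are given because GCLM, TXNRD1 and ME1 were called higher in all 5 comparisons between groups, while PGD was called lower in 4 of the 5. Capitals mark the core, each stretch runs 5′ to 3′ on the strand of its gene, and the position of the core is counted from the RefSeq start. The gene positions given further below come from another annotation, whose starts can differ. By those positions the PGD stretch lies inside the gene, which begins there at 10398592, and the GCLM stretch overlaps the first bases of its gene.
GCLM, chr1:93909431-93909504, minus strand, core at -34: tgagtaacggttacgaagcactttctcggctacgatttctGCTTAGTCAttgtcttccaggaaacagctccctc
TXNRD1, chr12:104215640-104215728, plus strand, core at -99: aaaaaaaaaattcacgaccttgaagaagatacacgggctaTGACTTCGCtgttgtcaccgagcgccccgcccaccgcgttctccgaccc
ME1, chr6:83431140-83431228, minus strand, core at -137: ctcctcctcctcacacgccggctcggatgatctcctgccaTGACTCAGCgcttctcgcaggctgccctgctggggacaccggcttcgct
PGD, chr1:10398823-10398911, plus strand, core at -201: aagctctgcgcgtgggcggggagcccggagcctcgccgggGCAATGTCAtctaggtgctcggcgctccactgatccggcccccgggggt

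The core of ME1 includes the AP-1 letters TGACTCA, and the cores of GCLM, TXNRD1 and PGD do not. TXNRD1 and ME1 each held another match close to the start, and PIR held the core GCTGAGTCA 26 bases after its start. GPX2 and CBR1, which could not be tested, also held a match. SLC7A11, GSR, PRDX1, HMOX1, FTH1, AKR1B10, CBR3 and ABCC3 were not searched.

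Most of the 33 tested genes were higher in truncation than in WT cells and higher with knockdown than with scramble. Changes are log2 fold changes with their standard error after ±, with 4 libraries per group, and a gene was called when its adjusted p was under 0.05 by edgeR's quasi-likelihood test with Benjamini-Hochberg adjustment over the 17104 genes. With truncation in scramble cells, 24 genes were called higher and 3 lower, where 21.6% and 22.4% of all genes were called in those directions. The median change was 0.30 over the 33 genes and -0.02 over all genes. With knockdown in WT cells 18 were higher and 5 lower (all genes 25.2% and 25.1%), with a median of 0.26 against 0.01 over all genes. With knockdown in truncation cells 18 were again higher and 5 lower (all genes 28.7% and 28.1%), with a median of 0.22 against 0.02. The higher share of the listed genes, 18 of 33, exceeded the background in both genotypes, and the lower share was under it. Because the list was chosen with earlier results of these data known, the shares describe these genes and do not test the list.

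Truncation against WT within knockdown cells gave 21 genes higher and 5 lower (all genes 21.9% and 23.6%), with a median of 0.33 against -0.00. Truncation with knockdown against WT with scramble gave 25 higher and 6 lower (all genes 33.2% and 33.5%), with a median of 0.57 against 0.00. These comparisons share groups and so share libraries, and their counts are not independent of each other. In bulk RNA, fewer cells that express a gene and less RNA per cell cannot be told apart. The mean level was highest in truncation knockdown cells for 19 of the 33 genes and lowest in WT scramble cells for 21. In 7 genes, namely MAFG, GSR, PGD, BLVRB, AKR1B10, OSGIN1 and PIR, the 4 groups did not overlap at all. How many of all genes had these highest or lowest groups, or 4 groups apart, was not counted, so these counts only describe the listed genes. Called higher both with truncation in scramble cells and with knockdown in WT cells were 16 genes, while SRXN1, PGD and BLVRB were called higher with the former and lower with the latter. Both changes are taken against the same WT scramble libraries, and the share of all genes called higher in both was not counted.

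**Figure D1:**
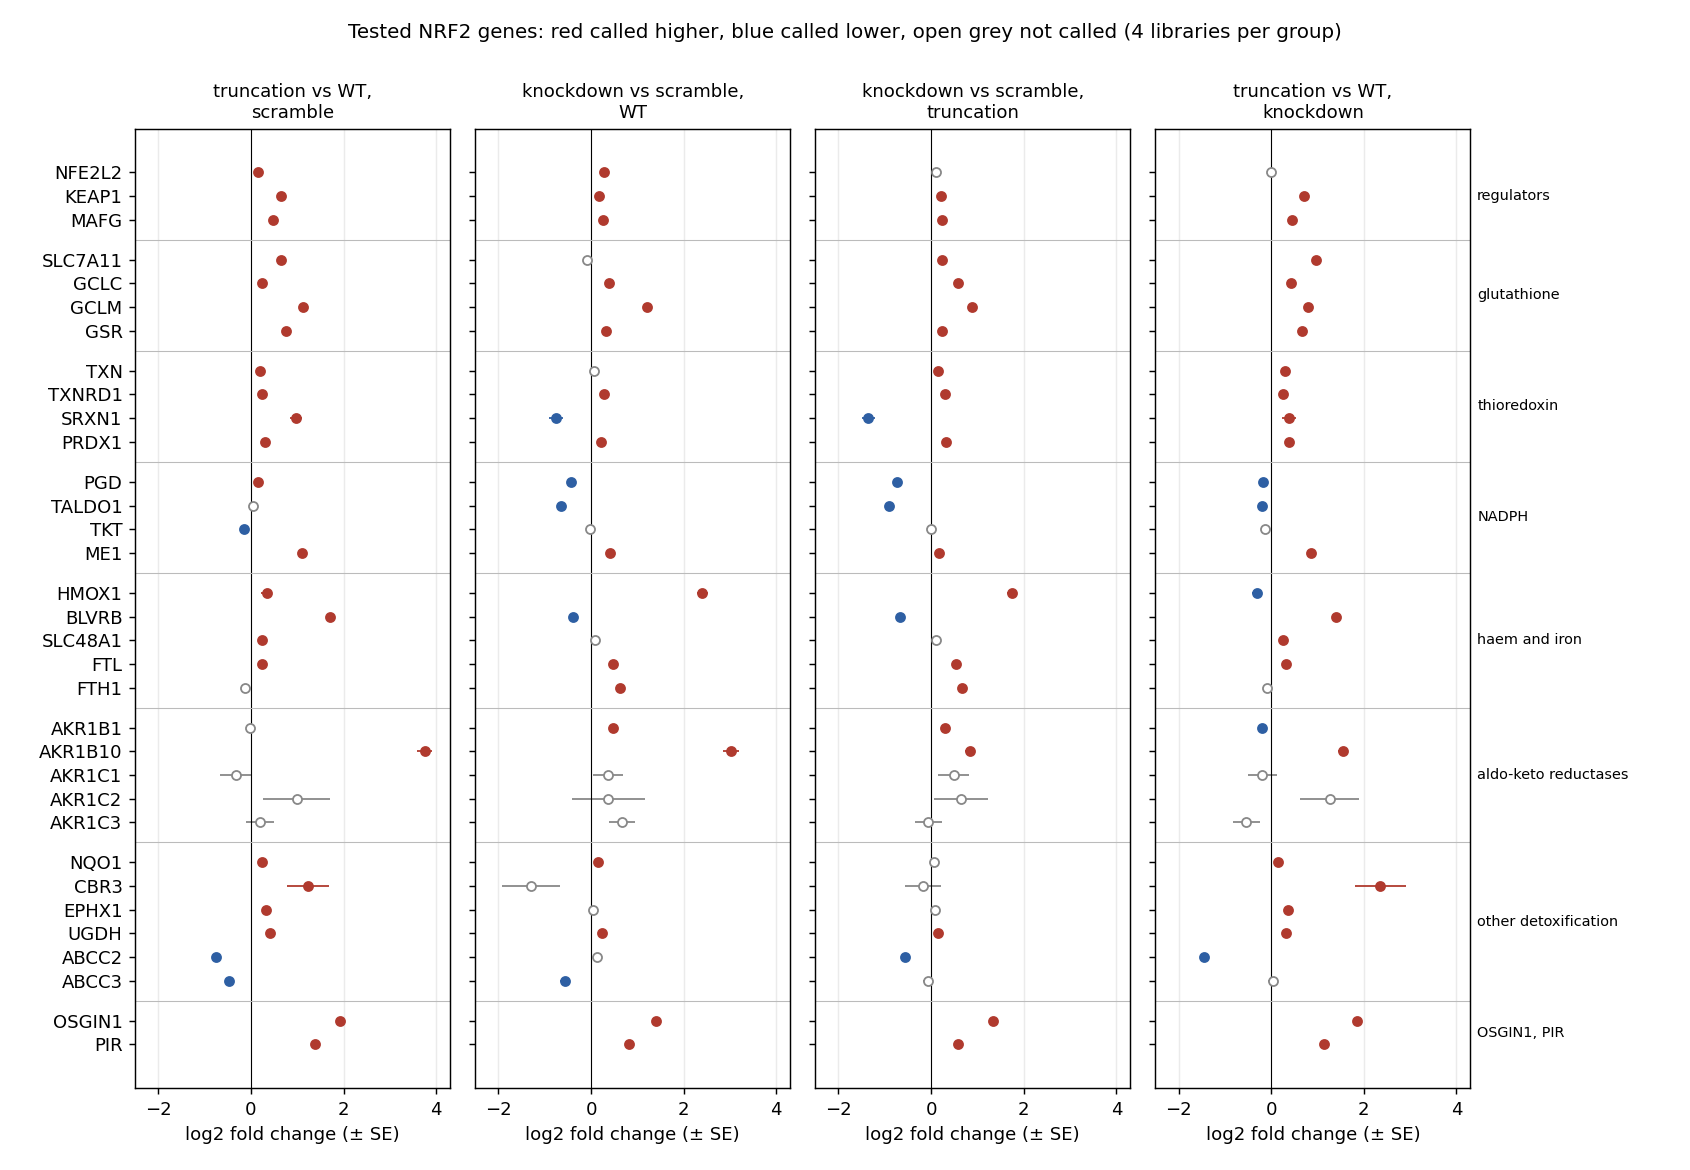
Log2 fold change (x axis, ± standard error) of each of the 33 tested genes (y axis, grouped by role) in 4 comparisons of 4 against 4 libraries. Red points are genes called higher, blue points genes called lower and open grey points genes not called; 24 are red in the left panel and 18 in each knockdown panel.

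Among the regulators, KEAP1 and MAFG rose with truncation, and NFE2L2 moved little. NFE2L2, which encodes NRF2, had 87.8, 89.2, 94.4 and 89.7 CPM in WT cells with scramble and 106, 120.01, 103 and 104 with knockdown, and 103, 108, 93.6 and 103 in truncation cells with scramble and 114, 109, 107 and 97.8 with knockdown. The WT scramble libraries are below all knockdown libraries and overlap truncation scramble, and the other 3 groups overlap each other. Its change was 0.27 ± 0.06 with knockdown in WT cells and 0.16 ± 0.06 with truncation in scramble cells, both called. It was 0.11 ± 0.06 with knockdown in truncation cells and -0.01 ± 0.06 with truncation in knockdown cells, neither called. The call for truncation was lost when WT scramble replicate 1, 2 or 4 was left out, or else truncation scramble replicate 2 or 4, at 0.14 to 0.16, and with upper-quartile scaling, at 0.11. Of the 50-base stretches of its transcripts, 13.2% also occur in the overlapping gene AC019080.1, which had 159 to 214 counts per group against 10308 to 12894 for NFE2L2.

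KEAP1, which presents NRF2 for destruction and is itself an NRF2 target, had 151, 133, 141 and 154 CPM in WT cells with scramble and 158, 177, 138 and 176 with knockdown, and 241, 230.05, 225 and 224 in truncation cells with scramble and 263, 287, 236 and 262 with knockdown. All 8 truncation libraries lay above all 8 WT libraries. It rose with truncation by 0.65 ± 0.07 in scramble cells and 0.70 ± 0.07 in knockdown cells. With knockdown it rose by 0.17 ± 0.07 in WT cells, a call lost without WT scramble replicate 2 or 3 or WT knockdown replicate 2 or 4 (0.13 to 0.16), and by 0.22 ± 0.07 in truncation cells, lost without truncation knockdown replicate 2 (0.16). Per kilobase of exon, the level of KEAP1 was 2.55 ± 0.213 times that of NFE2L2 (SD, n = 4) in WT cells with scramble and 2.38 ± 0.233 with knockdown, and 3.60 ± 0.207 in truncation cells with scramble and 3.91 ± 0.380 with knockdown. MAFG, the DNA-binding partner, rose with truncation by 0.48 ± 0.06 in scramble and 0.45 ± 0.06 in knockdown cells, and with knockdown by 0.26 ± 0.06 in WT and 0.23 ± 0.06 in truncation cells. Its levels ran from 80.7, 76.1, 77.3 and 80.6 CPM in WT scramble to 131, 127, 124 and 125 in truncation knockdown libraries.

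The glutathione genes moved in the same direction. Of the 4 tested, all 4 were called higher with truncation in either siRNA background and with knockdown in truncation cells, and 3 with knockdown in WT cells. Of all genes, 21.6% were called higher with truncation in scramble cells and 21.9% in knockdown cells. With knockdown, 28.7% of all genes were called higher in truncation cells and 25.2% in WT cells. GCLM (ENSG00000023909, chromosome 1, 93885205 to 93909456, minus strand, on GRCh38 as are all gene positions here), the modifier subunit of the glutamate-cysteine ligase that begins glutathione synthesis, had 61.7, 61.4, 68.4 and 62.8 CPM in WT cells with scramble and 129, 177, 144 and 132 with knockdown, and 148, 144, 132 and 136 in truncation cells with scramble and 266, 261, 239 and 237 with knockdown. The WT knockdown and truncation scramble libraries overlap, and the lowest and highest groups stand apart from them. GCLM was 2.18-fold higher with truncation in scramble cells (1.12 ± 0.08), 2.30-fold higher with knockdown in WT cells (1.20 ± 0.08) and 3.99-fold higher with both (2.00 ± 0.08, adjusted p = 9.92e-17, edgeR's quasi-likelihood test with Benjamini-Hochberg adjustment). WT knockdown replicate 2 was the highest of its group, and without it the knockdown change in WT cells was 1.099. Within truncation cells knockdown added 0.87 ± 0.08.

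GCLC, the catalytic subunit of the same enzyme, had smaller changes than GCLM. It had 65.6, 70.6, 73.2 and 68.6 CPM in WT cells with scramble and 89.8, 96.8, 91.6 and 84.6 with knockdown, and 83.6, 84.8, 83.6 and 79.99 in truncation cells with scramble and 121, 124, 119 and 119.5 with knockdown. It rose by 0.24 ± 0.05 with truncation in scramble cells, 0.39 ± 0.05 with knockdown in WT cells and 0.58 ± 0.05 with knockdown in truncation cells. Per kilobase of exon, the ratio of GCLM to GCLC was 1.46 ± 0.0512 (SD, n = 4) in WT cells with scramble and 2.55 ± 0.268 with knockdown, and 2.69 ± 0.130 in truncation cells with scramble and 3.31 ± 0.158 with knockdown, and the WT scramble libraries (1.388 to 1.502) lay below all others.

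GSR, which regenerates reduced glutathione with NADPH, had 280.00, 285, 297 and 278 CPM in WT cells with scramble and 363, 349, 357 and 339 with knockdown, and 491, 492, 479.9 and 483 in truncation cells with scramble and 592, 565, 535 and 529 with knockdown, 4 groups without overlap. Its change was 0.76 ± 0.05 with truncation in scramble cells and 0.32 ± 0.05 with knockdown in WT cells. SLC7A11, the cystine importer that supplies cysteine for glutathione, had 59.6, 67.5, 72.9 and 60.4 CPM in WT cells with scramble and 58.4, 70.1, 60.96 and 55.00 with knockdown, and 108, 106, 104 and 93.7 in truncation cells with scramble and 106, 119, 121 and 130.2 with knockdown. The truncation libraries lay above every WT library. SLC7A11 rose with truncation by 0.65 ± 0.08 in scramble and 0.97 ± 0.08 in knockdown cells. Its knockdown change was -0.08 ± 0.08 in WT cells, not called, and 0.24 ± 0.08 in truncation cells, called but lost without truncation scramble replicate 4 or truncation knockdown replicate 4 (0.18 each). The difference of the knockdown changes was 0.33 ± 0.11 with an adjusted p of 0.0771 by edgeR's quasi-likelihood test with Benjamini-Hochberg adjustment, and it was called without WT knockdown replicate 2 (0.39) and without both replicates 2 and 3 (0.42). GPX2, a gut glutathione peroxidase, had 3 to 16 counts per library and was not tested.

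Thioredoxin genes rose with truncation, by small amounts except SRXN1. With truncation all 4 were called higher in either siRNA background (all genes 21.6% higher in scramble and 21.9% in knockdown cells). TXN, the thioredoxin protein, was at 223, 211, 204 and 232 CPM in WT scramble and 250.2, 241, 252 and 265 in truncation scramble libraries, and rose by 0.20 ± 0.06, a call lost without WT scramble replicate 3 (0.17) and with upper-quartile scaling (0.15). Its knockdown change in WT cells was 0.06 ± 0.06, not called. In truncation cells it was 0.15 ± 0.06, a call lost whenever 1 library of the 8 was left out, except for truncation knockdown replicate 4, at 0.07 to 0.15. TXNRD1, the reductase that recharges thioredoxin, had 417, 430.2, 461 and 413 CPM in WT cells with scramble and 503, 585, 506 and 480.4 with knockdown, and 529, 521, 493 and 500.3 in truncation cells with scramble and 642, 626, 593 and 583 with knockdown. It changed by a like amount in each single comparison, 0.23 ± 0.06 with truncation in scramble cells, 0.28 ± 0.06 with knockdown in WT cells and 0.29 ± 0.06 with knockdown in truncation cells. PRDX1, an abundant peroxiredoxin that reduces peroxides, rose by 0.30 ± 0.05, 0.22 ± 0.05 and 0.32 ± 0.05 in the same comparisons, from 672 ± 30.3 CPM (SD, n = 4) in WT scramble to 1016 ± 63.8 in truncation knockdown libraries.

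SRXN1 (ENSG00000271303, chromosome 20, 646615 to 653370, minus strand), the sulfiredoxin that repairs overoxidised peroxiredoxins, went the other way with knockdown. It had 7.32, 6.84, 5.24 and 5.58 CPM in WT cells with scramble and 3.74, 3.11, 3.51 and 4.32 with knockdown, and 14.6, 13.02, 12.02 and 10.04 in truncation cells with scramble and 4.10, 4.74, 4.16 and 5.98 with knockdown. Both knockdown groups lay under the truncation scramble libraries, and WT scramble overlapped truncation knockdown. SRXN1 rose with truncation by 0.98 ± 0.13 in scramble cells and fell with knockdown, with changes of -0.76 ± 0.15 in WT cells and -1.35 ± 0.13 in truncation cells. Truncation in knockdown cells gave 0.38 ± 0.15, a call lost without WT knockdown replicate 1, 2 or 3 or truncation knockdown replicate 2 or 4 (0.24 to 0.38) and without both WT knockdown replicates 2 and 3 (0.25). Its fall from WT scramble to truncation knockdown of -0.38 ± 0.14 was lost without WT scramble replicate 1 or 2 or truncation knockdown replicate 1 or 3 (-0.33 to -0.29). The value is uncertain because the annotation places another gene, AL121758.1, on the same strand over 2292 of the 2698 exonic bases of SRXN1, and 84.8% of the 50-base stretches of SRXN1 occur in it. AL121758.1 had 14, 13, 63 and 82 counts over the 4 libraries of each group, in the order used above, against 713, 429, 1442 and 573 for SRXN1. With knockdown in truncation cells the counts of AL121758.1 were higher and those of SRXN1 lower, and how reads were divided between both genes was not tested.

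**Figure D2:**
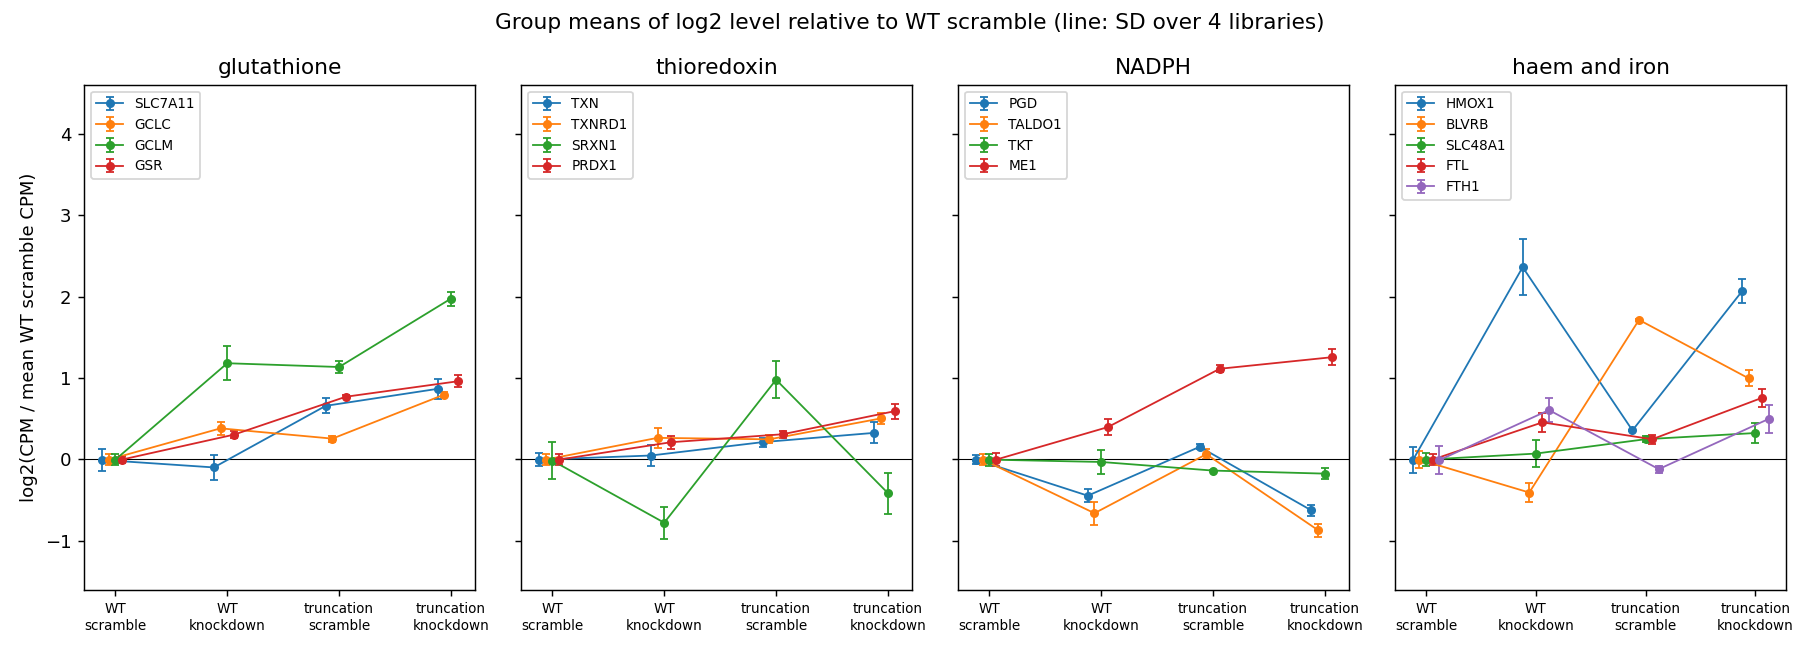
Log2 of CPM over the WT scramble mean (y axis) in the 4 groups (x axis) for the tested glutathione, thioredoxin, NADPH, and haem and iron genes; points are group means, bars the SD over 4 libraries, and lines join the points of a gene. GCLM and HMOX1 reach the highest values in their panels, while PGD, TALDO1, SRXN1 and, in WT cells, BLVRB drop below 0 with knockdown.

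The NADPH genes did not move as a block, and with knockdown PGD and TALDO1 fell while ME1 rose. PGD (ENSG00000142657, chromosome 1, 10398592 to 10420144, plus strand), the 6-phosphogluconate dehydrogenase that yields NADPH in the oxidative pentose phosphate pathway, had 301, 289.5, 298 and 319 CPM in WT cells with scramble and 226, 217, 209 and 237 with knockdown, and 333, 339.7, 329 and 344 in truncation cells with scramble and 195, 203, 203 and 183 with knockdown. The 4 groups did not overlap, and both knockdown groups were the low ones. Knockdown lowered it in both genotypes, with -0.43 ± 0.05 in WT and -0.75 ± 0.05 in truncation cells. With truncation in scramble cells the PGD change was 0.14 ± 0.05, called higher. That call was lost without WT scramble replicate 2 (0.12), with upper-quartile scaling (0.09) and without the filter on low counts (0.16). With truncation in knockdown cells the change was -0.17 ± 0.05, called lower.

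TALDO1, a transaldolase of the non-oxidative branch, followed the pattern of PGD. It had 193, 187, 182 and 202 CPM in WT cells with scramble and 126, 108, 117 and 135 with knockdown, and 191, 199, 199 and 211 in truncation cells with scramble and 107, 106, 109.7 and 96.6 with knockdown. It fell with knockdown in both genotypes, with changes of -0.64 ± 0.06 in WT and -0.90 ± 0.06 in truncation cells. Its truncation change in scramble cells was 0.05 ± 0.06 with a 95% interval of -0.08 to 0.18. TKT, the transketolase of the same branch, had 788, 748, 725 and 813 CPM in WT cells with scramble and 791, 686, 695 and 850.3 with knockdown, and 699, 699, 697 and 701 in truncation cells with scramble and 686, 724, 668 and 649.9 with knockdown. Its knockdown change was not called in either genotype, with 95% intervals of -0.14 to 0.11 in WT cells and -0.13 to 0.13 in truncation cells. Its truncation change of -0.15 ± 0.06 in scramble cells was called, but not without WT scramble replicate 1 or 4 or any 1 truncation scramble replicate, at -0.14 to -0.12. Nor was it called with DESeq2 size factors (-0.14) or without the filter on low counts (-0.14). In knockdown cells the truncation change was -0.14 ± 0.06, not called, and it was called without WT knockdown replicate 2 or 3 or truncation knockdown replicate 2 (-0.19 to -0.17), and at -0.26 without both WT knockdown replicates 2 and 3.

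ME1 (ENSG00000065833, chromosome 6, 83210389 to 83431071, minus strand), the cytosolic malic enzyme, makes NADPH by another route and was the NADPH gene that rose with knockdown. It had 90.03, 92.8, 100.2 and 89.3 CPM in WT cells with scramble and 120.4, 136, 118 and 117 with knockdown, and 208, 202, 202 and 194 in truncation cells with scramble and 233, 233, 222 and 202 with knockdown. The truncation libraries were all above the WT ones. ME1 was 2.14-fold higher with truncation in scramble cells (1.10 ± 0.06, adjusted p = 8.49e-14, edgeR's quasi-likelihood test with Benjamini-Hochberg adjustment). With knockdown it rose by 0.41 ± 0.06 in WT cells and by 0.18 ± 0.06 in truncation cells, the latter lost without truncation scramble replicate 4 or truncation knockdown replicate 1 or 2 (0.13 to 0.14).

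Among the haem and iron genes, HMOX1 had its largest changes with knockdown and BLVRB with truncation. HMOX1 encodes haem oxygenase 1, which opens haem to biliverdin, and BLVRB encodes a flavin and biliverdin reductase. HMOX1 (ENSG00000100292, chromosome 22, 35380361 to 35394214, plus strand) had 33.4, 27.1, 28.3 and 33.5 CPM in WT cells with scramble and 142, 216, 124 and 160.5 with knockdown, and 38.96, 39.5, 39.3 and 39.1 in truncation cells with scramble and 131, 144, 112 and 129 with knockdown. The 8 knockdown libraries lay between 112 and 216 CPM and the 8 scramble libraries between 27.1 and 39.5. HMOX1 was 5.28-fold higher with knockdown in WT cells (2.40 ± 0.12, adjusted p = 5.64e-14, edgeR's quasi-likelihood test with Benjamini-Hochberg adjustment) and 3.37-fold higher in truncation cells (1.75 ± 0.11). WT knockdown replicate 2 was the highest library, and without it the change in WT cells was 2.23. Truncation changed HMOX1 by 0.34 ± 0.12 in scramble cells, lost without WT scramble replicate 2 (0.29) or 3 (0.31). In knockdown cells the truncation change was -0.31 ± 0.11, a call lost without WT knockdown replicate 2 (-0.14) or truncation knockdown replicate 3 (-0.25) and with DESeq2 (-0.31).

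BLVRB (ENSG00000090013, chromosome 19, 40447765 to 40465840, minus strand) had 74.8, 70.4, 64.6 and 75.2 CPM in WT cells with scramble and 56.1, 48.7, 52.3 and 58.7 with knockdown, and 234, 236, 231 and 235 in truncation cells with scramble and 147, 153, 133 and 136 with knockdown, with no overlap among the 4 groups. It was 3.25-fold higher with truncation in scramble cells (1.70 ± 0.06) and 2.66-fold higher in knockdown cells (1.41 ± 0.06). Knockdown lowered it, with changes of -0.39 ± 0.06 in WT cells and -0.68 ± 0.06 in truncation cells. SLC48A1, a transporter that brings haem into the cytosol, rose with truncation by 0.24 ± 0.07 in scramble cells and 0.26 ± 0.07 in knockdown cells, the latter not called without both WT knockdown replicates 2 and 3 (0.13). Its knockdown changes were 0.09 ± 0.07 in WT cells and 0.11 ± 0.07 in truncation cells, not called, and without both WT knockdown replicates the former was 0.20 and was called.

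The ferritin chains store iron together, and both rose with knockdown. FTL, the light chain, had 1263, 1215, 1138 and 1152 CPM in WT cells with scramble and 1673, 1663, 1463 and 1758 with knockdown, and 1395, 1382, 1395 and 1496 in truncation cells with scramble and 2195, 2116, 1889.6 and 1878 with knockdown. FTH1, the heavy chain with the ferroxidase site, had 420.3, 369, 328 and 325 CPM in WT cells with scramble and 533, 572, 485 and 616 with knockdown, and 345, 337, 324 and 324 in truncation cells with scramble and 538, 514, 430.2 and 565 with knockdown. Within each genotype the knockdown libraries of both chains lay above the scramble libraries. With knockdown FTL changed by 0.47 ± 0.06 in WT and 0.55 ± 0.06 in truncation cells, and FTH1 by 0.62 ± 0.08 and 0.66 ± 0.08, all 4 called. With truncation in scramble cells FTL rose by 0.24 ± 0.06, while FTH1 changed by -0.13 ± 0.08, not called, with a 95% interval of -0.31 to 0.05. Per kilobase of exon, the ratio of FTL to FTH1 was 7.69 ± 0.555 (SD, n = 4) in WT cells with scramble and 6.89 ± 0.293 with knockdown, and 9.87 ± 0.598 in truncation cells with scramble and 9.20 ± 1.06 with knockdown. Ferritin has many processed copies in the genome, and 18.3% of the 50-base stretches of FTL and 19.9% of those of FTH1 occur in other annotated genes.

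The aldo-keto reductases split by level. AKR1B10 (ENSG00000198074, chromosome 7, 134527592 to 134541408, plus strand), which reduces reactive aldehydes and retinal, had the largest change of all the listed genes. It had 0.627, 0.523, 0.451 and 0.536 CPM in WT cells with scramble (13 to 18 counts) and 3.46, 4.79, 4.27 and 4.91 with knockdown (101 to 141 counts), and 6.62, 6.92, 7.37 and 8.31 in truncation cells with scramble (189 to 240 counts) and 13.9, 12.8, 12.98 and 11.1 with knockdown (341 to 422 counts). The 4 groups stood apart in that order. AKR1B10 was 13.4-fold higher with truncation in scramble cells (3.75 ± 0.16), 8.15-fold higher with knockdown in WT cells (3.03 ± 0.17) and 23.9-fold higher with both (4.58 ± 0.15, adjusted p = 4.78e-18, edgeR's quasi-likelihood test with Benjamini-Hochberg adjustment). In truncation cells, which started higher, knockdown added 0.83 ± 0.10. Of its 50-base stretches 14.6% occur in other genes, 9.70% in its neighbour AKR1B15.

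AKR1B1, aldose reductase, is its close relative. It had 37.5, 36.7, 40.1 and 37.7 CPM in WT cells with scramble and 58.4, 48.1, 49.7 and 54.2 with knockdown, and 38.2, 36.1, 37.3 and 39.7 in truncation cells with scramble and 46.4, 48.04, 44.5 and 42.6 with knockdown. It rose with knockdown by 0.48 ± 0.06 in WT cells and 0.30 ± 0.06 in truncation cells, while truncation in scramble cells changed it by -0.02 ± 0.06, with a 95% interval of -0.16 to 0.12. In knockdown cells truncation gave -0.20 ± 0.06, called lower. The difference of its knockdown changes between genotypes, -0.18 ± 0.09, was not called, and it was without both WT knockdown replicates 2 and 3 (-0.29). Both knockdown groups lay above both scramble groups, which overlap each other.

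AKR1C1, AKR1C2 and AKR1C3, the reductases of steroids and aldehydes that lie side by side on chromosome 10, were barely expressed. AKR1C1 lay between 0.206 and 0.557 CPM over the 16 libraries and AKR1C3 between 0.450 and 1.11, and neither was called in any comparison. Their truncation changes in scramble cells had 95% intervals of -1.07 to 0.43 for AKR1C1 and -0.46 to 0.85 for AKR1C3. The lack of a call therefore leaves changes in either direction within these bounds possible. Without WT knockdown replicate 2, AKR1C3 was called higher with knockdown in WT cells (0.86) and lower with truncation in knockdown cells (-0.73), and without both WT knockdown replicates 2 and 3 these values were 0.99 and -0.88, also called. AKR1C2 lay between 0 and 0.492 CPM and was called for truncation with knockdown against WT with scramble (1.63 ± 0.67), a call lost without WT scramble replicate 1, 2 or 3 or truncation knockdown replicate 3 or 4 (1.37 to 1.63). WT knockdown replicate 3 held 14 of the 16 AKR1C2 counts of its group, and without it the truncation change in knockdown cells was 3.62 and called, as it was without both WT knockdown replicates 2 and 3 (3.97). Of the 50-base stretches of AKR1C1 28.6% and of AKR1C2 38.9% occur in other genes, nearly all in each other, so their counts may have been divided between them.

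The genes of quinone and carbonyl reduction, conjugation and export were mixed. NQO1, the quinone reductase most often used as an NRF2 marker, moved little. It had 275, 279, 276 and 274 CPM in WT cells with scramble and 323, 307, 289 and 307 with knockdown, and 327, 324, 331 and 335 in truncation cells with scramble and 351, 344, 341 and 304 with knockdown. It rose by 0.24 ± 0.05 with truncation in scramble cells and by 0.16 ± 0.05 with knockdown in WT cells, and its knockdown change in truncation cells was 0.06 ± 0.05, not called. Truncation in knockdown cells gave 0.14 ± 0.05, lost without WT knockdown replicate 3 or truncation knockdown replicate 1, 2 or 3 (0.11 to 0.13) and without both WT knockdown replicates 2 and 3 (0.10). Per kilobase of exon, NQO1 had 84.8 CPM in WT scramble libraries, where FTL had 1358, PRDX1 442, GSR 75.8 and OSGIN1 7.60. Whether this level bears on the size of its changes was not tested.

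EPHX1, the microsomal epoxide hydrolase, rose with truncation by 0.33 ± 0.05 in scramble and 0.36 ± 0.05 in knockdown cells, and its knockdown changes of 0.04 ± 0.05 in WT and 0.08 ± 0.05 in truncation cells were not called. UGDH makes UDP-glucuronate for glucuronidation. It rose by 0.42 ± 0.06 with truncation in scramble cells and by 0.24 ± 0.06 with knockdown in WT cells, a call lost without both WT knockdown replicates 2 and 3 (0.15). Its knockdown change in truncation cells, 0.15 ± 0.06, was called but lost whenever 1 library of the 8 was left out, except for truncation knockdown replicate 4, at 0.11 to 0.15. CBR3, a carbonyl reductase, had 20 and 8 counts over the 4 libraries of WT scramble and WT knockdown. It had 49 and 44 over those of truncation scramble and truncation knockdown. CBR3 thus entered the tests mainly through the truncation groups, where it is high, and its calls with truncation only describe it. It was called higher with truncation in scramble cells (1.23 ± 0.45) and in knockdown cells (2.35 ± 0.55), and is among the genes counted higher there. The call in scramble cells was lost when any of truncation scramble replicate 4 and WT scramble replicates 1, 2 and 4 was left out (0.90 to 1.24). That call was also lost without the filter on low counts (1.25). Its antisense partner CBR3-AS1 had 20 to 48 counts per group, and without a stated strand the reads of both cannot be told apart. CBR1, its relative, had 1 count over the 16 libraries and was not tested.

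Both exporters were lower with truncation in scramble cells. ABCC2 (ENSG00000023839, chromosome 10, 99782640 to 99852594, plus strand), an apical pump for glutathione and glucuronide conjugates, had 111, 125, 118 and 107 CPM in WT cells with scramble and 131, 120.01, 123 and 126 with knockdown, and 69.00, 69.4, 70.2 and 66.6 in truncation cells with scramble and 40.97, 43.9, 53.3 and 43.98 with knockdown. The truncation libraries were all lower than the WT libraries, and the truncation knockdown libraries were lowest. ABCC2 changed by -0.76 ± 0.07 with truncation in scramble cells and -1.45 ± 0.07 in knockdown cells. Knockdown lowered it in truncation cells (-0.56 ± 0.07) and gave 0.13 ± 0.06 in WT cells, which was not called, although it was without WT scramble replicate 2 (0.17). ABCC3, the basolateral pump, had 22.2, 22.9, 18.98 and 17.6 CPM in WT cells with scramble and 13.98, 15.1, 14.2 and 11.4 with knockdown, and 14.8, 15.2, 15.2 and 14.5 in truncation cells with scramble and 12.4, 13.3, 13.5 and 16.3 with knockdown. It was lower in each of the other groups than in WT scramble cells, with changes of -0.47 ± 0.10 with truncation, -0.57 ± 0.10 with knockdown and -0.54 ± 0.10 with both.

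OSGIN1 and PIR rose in every comparison between groups and kept the 4 groups apart. OSGIN1 (ENSG00000140961, chromosome 16, 83948282 to 83966332, plus strand), an oxidative stress-induced growth inhibitor, had 28.4, 26.9, 24.5 and 25.4 CPM in WT cells with scramble and 65.9, 81.3, 59.2 and 70.8 with knockdown, and 105, 102, 96.7 and 99.99 in truncation cells with scramble and 255, 265, 211 and 258 with knockdown. It was 3.80-fold higher with truncation in scramble cells (1.93 ± 0.08) and 2.65-fold higher with knockdown in WT cells (1.41 ± 0.08). With both it was 9.53-fold higher (3.25 ± 0.08, adjusted p = 4.63e-20, edgeR's quasi-likelihood test with Benjamini-Hochberg adjustment). Its knockdown change in truncation cells was 1.33 ± 0.08, and the difference from that in WT cells was -0.08 ± 0.11, with a 95% interval of -0.32 to 0.16. Of its 50-base stretches 12.1% occur in AC009119.2, a gene annotated over 481 of its 3460 exonic bases. PIR (ENSG00000087842, chromosome X, 15384799 to 15493564, minus strand), pirin, an iron-binding nuclear protein, had 24.2, 24.7, 24.3 and 25.8 CPM in WT cells with scramble and 42.6, 41.8, 43.8 and 44.2 with knockdown, and 64.9, 63.2, 65.7 and 65.4 in truncation cells with scramble and 99.9, 101, 95.2 and 83.7 with knockdown. PIR changed by 1.37 ± 0.06 with truncation in scramble cells, 0.81 ± 0.06 with knockdown in WT cells and 0.58 ± 0.06 with knockdown in truncation cells.

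**Figure D3:**
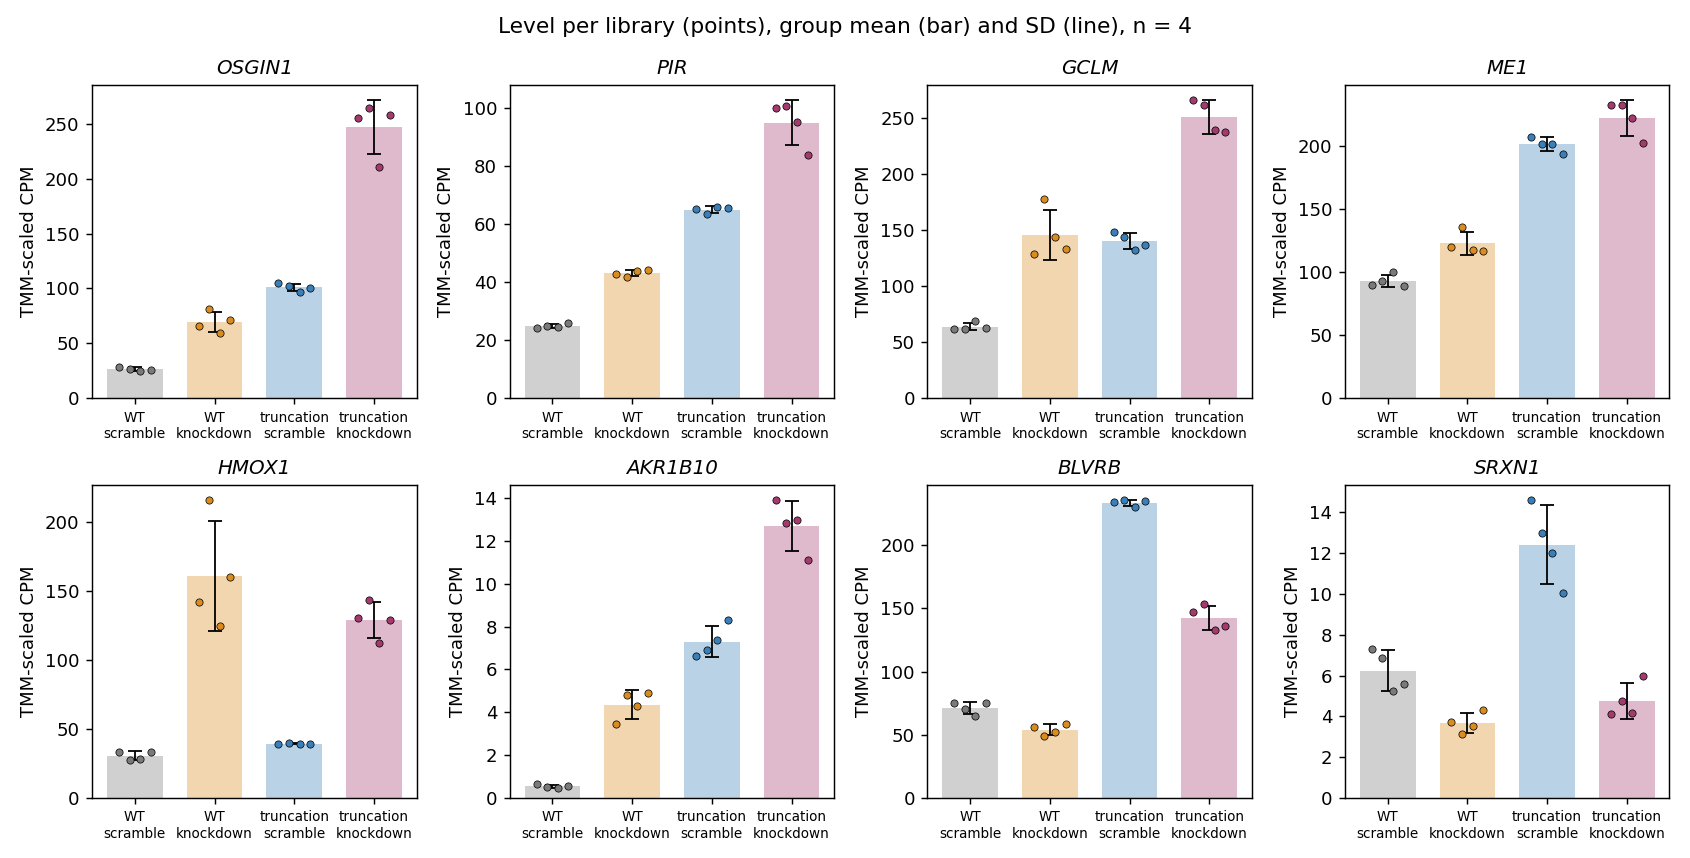
TMM-scaled CPM (y axis, linear from 0) of 8 of the genes in the 16 libraries (points) by group (x axis), with group means as bars and SDs as lines, n = 4. OSGIN1, PIR and AKR1B10 step upward through the 4 groups without overlap, HMOX1 is high in both knockdown groups, and BLVRB and SRXN1 are highest in truncation scramble cells.

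Whether knockdown acted differently in the 2 genotypes was tested as a difference, the knockdown change in truncation cells less that in WT cells. This difference was called higher in 1 of the 33 genes and lower in 5, where 2.05% and 3.65% of all genes were called in those directions, and it was not called in 27. Its median was -0.08 over the listed genes and -0.01 over all genes. Over all genes 350 were called higher and 624 lower, and with upper-quartile scaling 502 higher and 397 lower. The largest was that of AKR1B10, at -2.19 ± 0.21 (adjusted p = 4.93e-07, edgeR's quasi-likelihood test with Benjamini-Hochberg adjustment): its knockdown change was positive in both genotypes and smaller in truncation cells. HMOX1 had a difference of -0.65 ± 0.16, also a smaller rise in truncation cells, which was -0.48 without WT knockdown replicate 2 and remained called. ABCC2 had -0.69 ± 0.09, with a fall in truncation cells and an uncalled change of 0.13 in WT cells, and PGD had -0.31 ± 0.07, with the larger fall in truncation cells. BLVRB had -0.29 ± 0.09, called in 11 of 22 alternatives. It was not called with upper-quartile scaling (-0.24). The call was also lost without WT scramble replicate 2 or 3, WT knockdown replicate 1 or 4, any 1 truncation scramble replicate, or truncation knockdown replicate 3 or 4 (-0.31 to -0.25).

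ABCC3 was the gene called in the other direction, with 0.50 ± 0.14, since knockdown lowered it in WT cells and changed it by -0.07 ± 0.10 in truncation cells. That call was lost without WT scramble replicate 1 or 2, WT knockdown replicate 1 or 4, any 1 truncation scramble replicate, or truncation knockdown replicate 4 (0.39 to 0.49). GCLM (-0.33 ± 0.11), SRXN1 (-0.60 ± 0.20), TALDO1 (-0.25 ± 0.09) and ME1 (-0.23 ± 0.08) were not called, and DESeq2, which called 9 genes lower in place of 5, called each of them. GCLM was also called without WT knockdown replicate 1 (-0.41) or 4 (-0.38), SRXN1 without WT knockdown replicate 2 (-0.67), truncation scramble replicate 4 (-0.70) or truncation knockdown replicate 4 (-0.75), TALDO1 without WT knockdown replicate 2 (-0.31) and ME1 without WT scramble replicate 3 (-0.27). Without both WT knockdown replicates 2 and 3, SRXN1 (-0.74) and TALDO1 (-0.37) were called.

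**Figure D4:**
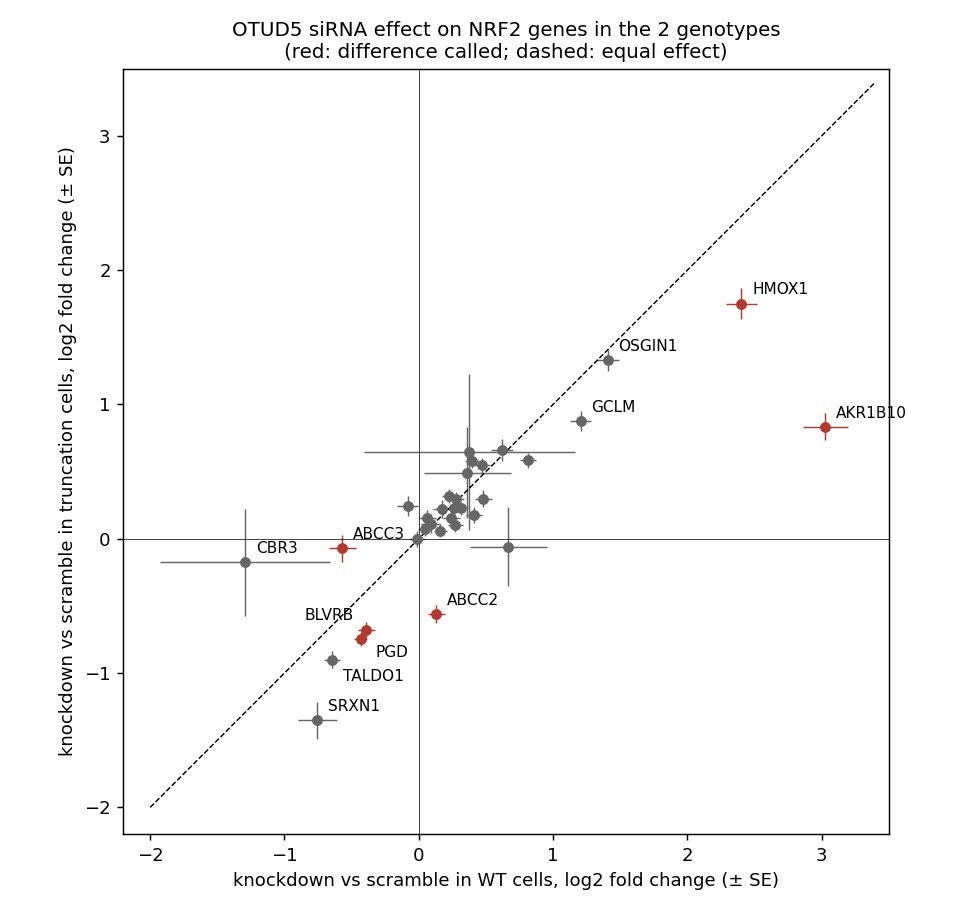
Knockdown log2 fold change (± standard error) in WT cells (x axis) and in truncation cells (y axis) for the 33 tested genes; red points are the 6 genes whose difference was called, and points on the dashed line have equal changes. AKR1B10 lies farthest below the line and OSGIN1 close to it.

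Set side by side as a description, the roles ran in mixed directions with knockdown and mostly upward with truncation in scramble cells. With truncation in scramble cells, the number called higher was 4 of 4 tested glutathione genes, 4 of 4 thioredoxin genes, 2 of 4 NADPH genes (with 1 lower), 4 of 5 haem and iron genes and 1 of 5 aldo-keto reductases. The medians of these roles were 0.70, 0.27, 0.10, 0.24 and 0.19, and 21.6% of all genes were called higher and 22.4% lower. With truncation in knockdown cells, all 4 glutathione and all 4 thioredoxin genes were higher, with medians of 0.73 and 0.34. There, 1 NADPH gene was higher and 2 lower (median -0.15), 3 haem and iron genes higher and 1 lower (0.26), and 1 aldo-keto reductase higher and 1 lower (-0.19). Of all genes 21.9% were higher and 23.6% lower. With knockdown in WT cells, 3 glutathione genes, 2 thioredoxin genes (1 lower), 1 NADPH gene (2 lower), 3 haem and iron genes (1 lower) and 2 aldo-keto reductases were higher, with medians of 0.36, 0.14, -0.22, 0.47 and 0.48. In that comparison 25.2% of all genes were higher and 25.1% lower. The NADPH genes were the role with a median under 0 for knockdown in WT cells, and in truncation cells their median was -0.37. Against WT scramble, truncation with knockdown left 3 NADPH genes lower and 1, ME1, higher, while all 5 haem and iron genes were higher (all genes 33.2% higher and 33.5% lower).

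Other genes of the same pathways, 93 listed and 89 tested, included many called in each direction. With truncation in scramble cells 34 were called higher and 14 lower (all genes 21.6% and 22.4%), with a median of 0.11. With knockdown in WT cells 31 were higher and 25 lower (all genes 25.2% and 25.1%), with a median of 0.01. With knockdown in truncation cells 33 were higher and 32 lower (all genes 28.7% and 28.1%), with a median of -0.01. With upper-quartile scaling the latter counts were 39 higher and 28 lower. That scaling called 5645 of all genes higher and 4247 lower, in place of 4904 and 4802. Among 15 genes of NRF2 turnover and partner factors, 6 rose and 2 fell with truncation in scramble cells. SQSTM1, the autophagy receptor that can draw KEAP1 away from NRF2, rose by 1.03 ± 0.06, and BACH1, the competitor of NRF2, by 1.02 ± 0.07. SYVN1, a ubiquitin ligase of the endoplasmic reticulum, changed by -0.81 ± 0.06. With knockdown BACH1 fell, with changes of -0.69 ± 0.08 in WT and -1.07 ± 0.07 in truncation cells, and so did NFE2L3, a relative of NRF2, with -1.17 ± 0.09 and -1.54 ± 0.09. MAFF, a small MAF protein, rose by 0.86 ± 0.10 and 1.12 ± 0.10.

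Of 18 further glutathione genes tested, 10 rose and none fell with truncation in scramble cells (all genes 21.6% and 22.4%). With knockdown 5 rose and 8 fell in each genotype (all genes 25.2% and 25.1% in WT, 28.7% and 28.1% in truncation cells). The truncation count included the glutaredoxin GLRX (1.11 ± 0.07) and the glutathione transferase GSTM4 (1.10 ± 0.09). With knockdown GSTM4 fell, with changes of -0.97 ± 0.09 in WT and -1.64 ± 0.09 in truncation cells, a difference of -0.67 ± 0.13 that was called. CHAC1, which degrades glutathione, rose with knockdown by 0.98 ± 0.12 and 1.61 ± 0.12, and GSS, the second enzyme of glutathione synthesis, changed by -0.71 ± 0.05 in truncation cells. Of 12 other thioredoxin and peroxide genes, 3 rose and 1 fell with truncation in scramble cells. SOD1, a superoxide dismutase, rose by 0.51 ± 0.06. The gene called lower, TXNIP, an inhibitor of thioredoxin, had -2.23 ± 0.89, which rests on WT scramble replicate 4: without it the value was 1.30 and was not called. The call was also lost without truncation scramble replicate 1, 2 or 3 (-2.199 to -1.952). With knockdown SESN2, a stress-induced sestrin, rose by 1.09 ± 0.09 in WT and 1.08 ± 0.09 in truncation cells.

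Of 10 other NADPH genes tested, 2 rose and 4 fell with knockdown in WT cells (all genes 25.2% and 25.1%). In truncation cells 2 rose and 6 fell with knockdown (all genes 28.7% and 28.1%), or 1 and 6 with DESeq2 size factors. TIGAR, which diverts glucose into the pentose phosphate pathway, rose by 0.62 ± 0.07 in WT cells. IDH1, a cytosolic source of NADPH, rose by 0.55 ± 0.07 with truncation in scramble cells and changed by -0.60 ± 0.07 with knockdown in truncation cells. Of 14 other haem and iron genes, 9 rose and 1 fell with knockdown in WT cells. With truncation in scramble cells 5 rose and 5 fell (all genes 21.6% and 22.4%). ABCB6, a porphyrin transporter, rose with knockdown by 0.98 ± 0.19 in WT and 1.96 ± 0.16 in truncation cells. FECH, which inserts iron into haem, rose by 0.80 ± 0.05 with truncation in scramble cells, and TFRC, the transferrin receptor, changed by -0.78 ± 0.06. NCOA4, the receptor that delivers ferritin to lysosomes, rose with knockdown by 0.57 ± 0.06 and 0.46 ± 0.06.

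Of 20 other detoxification genes, 7 rose and 3 fell with truncation in scramble cells (all genes 21.6% and 22.4%), or 6 and 5 with upper-quartile scaling. That scaling called 3084 of all genes higher and 4561 lower, in place of 3692 and 3837. With knockdown 6 rose and 7 fell in WT cells (all genes 25.2% and 25.1%). In truncation cells 8 rose and 7 fell with knockdown (all genes 28.7% and 28.1%). NQO2, a relative of NQO1, rose by 0.75 ± 0.05 with truncation in scramble cells. AKR7A2, an aldehyde reductase, fell with knockdown, with changes of -1.01 ± 0.08 in WT and -1.47 ± 0.08 in truncation cells. DHRS3, a retinal reductase, rose by 1.07 ± 0.06 with knockdown in truncation cells. TRIM16L rose by 0.75 ± 0.08 with truncation in scramble cells and by 1.02 ± 0.08 with knockdown in WT cells.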

How the data were processed

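Total RNA of HCT116 cells was sequenced by a commercial vendor by its own library method derived from Nextera-XT, as the labels' protocols state. Per the submitters' processing notes the authors used STAR 2.7.3a, DESeq2, edgeR and limma with hg38, without a stated role or order. Not given in the sources used here were the counting program, its strand setting and the annotation release. The authors deposited raw read counts for 60668 genes and a TMM-scaled CPM table (a normalized signal, scaled to library size) for 22916 genes. Levels in the text are the deposited TMM-scaled CPM signal, and tests used the deposited counts.

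Libraries were grouped by genotype and treatment labels, which for 4 truncation knockdown libraries differ from the titles. Genes with low counts were removed with filterByExpr, which left 17104 genes holding at least 99.8% of each library's counts. All 16 libraries were fitted together with edgeR 4.0.16 in R 4.3.3 (TMM scaling, quasi-likelihood F tests, 12 residual degrees of freedom, Benjamini-Hochberg adjustment over all tested genes, threshold 0.05). The biological coefficient of variation was 7.25%. The steps were tested on simulated data. Alternatives were DESeq2 1.42.0, other scaling, no filter, only the groups compared, a replicate block, leaving out each library and leaving out both WT knockdown replicates 2 and 3, the last chosen after seeing the data. Intervals and tests cover the spread between libraries. Figures were drawn in Python 3.11.15 with matplotlib 3.10.9.

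The genes and the lists of other pathway genes were chosen with earlier results of these data known. All listed genes are accounted for; of the other pathway genes, the text names from those with the largest called changes of each list in each comparison. Shared 50-base stretches and exon overlaps come from the reference annotation. CBR1, with 1 raw count, and GPX2, removed by the filter, were not tested.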

Additional observations from a re-analysis of the deposited data

Results flagged for a closer look

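In 132 groups of 4 libraries (33 genes by 4 groups), 2 groups held a library far from the others, where chance gives about 1 in 20 groups. FTL, the ferritin light chain, was at 1496 CPM in truncation scramble replicate 4, and at 1382 to 1395 in the other 3 libraries of that group. AKR1C2 was at 0.460 CPM in WT knockdown replicate 3, and at 0 to 0.0349 in the other 3. That library also had the most genes with a count, and the part of this in the AKR1C2 value was not tested.

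The knockdown change differed between the genotypes in 6 genes by a test of the difference itself (edgeR's quasi-likelihood test of the interaction, Benjamini-Hochberg adjustment), with values below 0 where the change was lower in truncation than in WT cells. The difference was -2.19 ± 0.21 for AKR1B10 (adjusted p = 4.93e-07), -0.69 ± 0.09 for ABCC2 (adjusted p = 6.8e-05) and -0.31 ± 0.07 for PGD (adjusted p = 0.00803). HMOX1 had -0.65 ± 0.16 (adjusted p = 0.015), BLVRB -0.29 ± 0.09 (adjusted p = 0.049) and ABCC3 0.50 ± 0.14 (adjusted p = 0.0343). The calls of AKR1B10, ABCC2, PGD and HMOX1 held in all 22 alternatives, that of ABCC3 in 13 and that of BLVRB in 11.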

How the results depend on the processing

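The counts of listed genes called higher or lower stayed within 1.5 times in the 5 comparisons between groups under every alternative that was run. For the difference of the knockdown changes, 1 gene was called higher, against 2 with upper-quartile scaling, 2 without the filter on low counts and 2 without both WT knockdown replicates 2 and 3. Leaving out 1 library gave 0 to 2, with 0 without WT scramble replicate 1 or 2, WT knockdown replicate 1 or 4, any 1 truncation scramble replicate or truncation knockdown replicate 4, and 2 without WT knockdown replicate 2. The count called lower was 5, against 9 with DESeq2 and 8 without both WT knockdown replicates. Upper-quartile scaling added calls with knockdown in truncation cells for NFE2L2 (0.16), SLC48A1 (0.17), NQO1 (0.11) and EPHX1 (0.13). In that comparison it shifted the changes of all genes by a median of 0.055. It called 5645 of all genes higher and 4247 lower, in place of 4904 and 4802. The same scaling called the difference of the knockdown changes of SLC7A11 (0.38). Not every changed call is given beside its gene. Without the filter on low counts, NFE2L2 also lost its call with truncation in scramble cells. NQO1 lost its call with knockdown in WT cells there, and TXN, ME1 and UGDH theirs in truncation cells. That setting gained the differences of SLC7A11, GCLM and SRXN1. With only the groups compared, KEAP1 lost its call with knockdown in WT cells. NQO1 and SRXN1 then lost theirs with truncation in knockdown cells. Over the 33 genes and 6 comparisons, leaving out 1 library lost 91 calls, gained 15 and left 1742 on the same side. TXNIP, an inhibitor of thioredoxin, turned direction without WT scramble replicate 4, from -2.23 to 1.30 with truncation in scramble cells and from -2.75 to 0.78 for truncation with knockdown against WT with scramble. Its values without 1 library ran from -2.83 to 1.30 and from -3.14 to 0.78. The cause was not tested. Among the other pathway genes, upper-quartile scaling changed the thioredoxin and peroxide counts with knockdown in truncation cells from 1 higher and 4 lower to 4 higher and 2 lower. The calls over all genes also moved upward there, as given above. Without both WT knockdown replicates 2 and 3, the difference of the knockdown changes was called higher in 5 and lower in 11 of these genes in place of 4 and 6.

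With a replicate block no count of listed genes moved by over 1.5 times, and the call of AKR1C2 for truncation in knockdown cells was gained (1.42, adjusted p = 0.035). TXNIP was not called under the replicate block (-1.64 in scramble cells). Deviations of the 24 pairs of libraries with the same number correlated at -0.08 to 0.16, and 4 of the 24 exceeded 0.1, as did 2 of the 72 pairs with different numbers. The share above 0.1 was larger among same-numbered pairs, and these 4 pairs joined libraries numbered 3 or libraries numbered 4 (0.102 to 0.164). Whether same-numbered libraries share a culture or day was not tested. No label ties a number to either, so the main fit did not treat the libraries as paired. The replicate block is given as the alternative. Depth limits AKR1C1, AKR1C2, AKR1C3, CBR3 and GPX2, which had few counts.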
